A study of Mus musculus with 12 samples.

Results

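The tumours described here were the 3 that received vehicle alone, out of 12 in the study, and they give the baseline against which its treatments were set. All 12 were grown from the mouse carcinoma line Sq-1979, which the labels class as head and neck squamous cell carcinoma. The cells were implanted subcutaneously with Matrigel in C3H/HeN males aged 6 weeks. Dosing began on day 20, with vehicle, regorafenib at 5 mg/kg per day, anti-PD1 or the combination (3 tumours each), and the protocol text gives daily oral gavage as the route. Regorafenib inhibits several receptor kinases, and anti-PD1 blocks a checkpoint receptor of T cells. Members were chosen by that label alone: the libraries of vehicle replicates 1, 2 and 3, called vehicle 1, 2 and 3. The 3 tumours share 1 cell line, grew outside the oral mucosa in hosts with their own immune system, and nothing in the labels says whether they came from separate mice. The spread reported is therefore that between these samples.

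Squamous epithelium renews itself from a basal layer, where keratins 5 and 14 pair to form the filaments of dividing cells and the transcription factor p63 keeps the lineage. Cells that leave this layer switch keratins and then build a cornified envelope from proteins such as involucrin, loricrin and filaggrin. In a carcinoma these cells sit in a collagen-rich stroma of fibroblasts, vessels and leukocytes, and bulk RNA reads all of them together. Fewer cells of a type and less RNA per cell cannot be told apart in such data.

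The vehicle libraries held 23921871, 27605744 and 25833036 counts, and identifiers with at least 1 count numbered 23397, 23602 and 23854. Levels are CPM (counts scaled to a library of the same size) with TMM library factors, given in the order vehicle 1, 2 and 3. Since a long transcript yields more reads, the families and the ranking per kilobase use levels divided by the length of the gene's merged exons. These are given as CPM per kilobase. Orders in plain CPM, such as the most counted or leading genes of a list, are not corrected for length. A count of 3, taken as the detection floor, equals 0.125, 0.109 and 0.116 CPM, and both floors and CPM cover counting error only. At 1 CPM or more in all 3 tumours stood 13638 genes, 12531 of them protein coding. The 10 most counted genes took 7.29%, 6.62% and 7.26% of the counts, and the 1000 most counted took 49.0%, 49.1% and 48.9%.

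The most counted gene was Col1a1 (chr11:94936224-94953042), a chain of type I collagen, at 12528, 9749.7 and 12068 CPM. It was followed by Eef1a1 and, in sixth place after Col1a2, Col3a1 and the mitochondrial mt-Co1, by the keratin gene Krt5 (chr15:101707070-101712898) at 6693, 7842 and 6854 CPM. Collagen and keratin thus shared the top of the list: Col1a2 stood at 9308, 7282 and 9152 CPM, Col3a1, a collagen of loose stroma, at 8613, 5347 and 7706, and Krt14 (chr11:100203162-100207548) at 4299.9, 5071 and 4603. The rest of the first 15 were the translation genes Eef2, Rplp0, Rpl4, Rps4x and Rack1, the matrix protein gene Sparc at 4021, 3095 and 3461 CPM, and the antigen presentation genes H2-K1 and B2m at 2843, 2831 and 2561 and 2719, 2597 and 2472 CPM. All 3 collagens were lowest in vehicle 2 and both keratins highest there.

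Per kilobase the order of nuclear protein-coding genes changed. Rplp1 and Eef1a1 led, and Krt5 came next at 3046, 3569 and 3119.6 CPM per kilobase, ahead of B2m at 3161, 3019 and 2874 and Krt14 at 2446, 2885 and 2618. Col1a1 moved to eighth at 1909, 1486 and 1839. The translation genes Rplp0, Eef2, Rps15, Rps4x, Rpl4, Rpl8 and Rpl32 filled most other places, beside Ifitm3, an antiviral membrane protein gene, at 1665, 1587 and 1520.1, and Cd74, the invariant chain of MHC class II, at 1522, 1286 and 1093. Of the first 15 genes, 9 were in both orders.

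The squamous identity given by the labels was borne by its markers. All 24 basal keratinocyte genes stood at 1 CPM or more in every tumour, and the list summed to 20982, 23956 and 20856 CPM. After Krt5 and Krt14 the most counted members were Col17a1, the transmembrane collagen of hemidesmosomes, at 1615, 1857 and 1491 CPM and Dst, the plakin that anchors keratin to them, at 1369, 1532 and 1279.6. Trp63, which encodes p63, stood at 494, 420.3 and 433 CPM, highest in vehicle 1, whereas 16 of the 24 genes were highest in vehicle 2. Krt5 averaged 7129.6 ± 622 CPM (SD, n = 3), so the gap between vehicle 2 and the others was small against its level. The epithelial adhesion genes Cdh1 (E-cadherin) and Epcam stood at 795, 880.3 and 885 and 222, 284 and 246 CPM.

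Later stages of the squamous programme were low or not detected for most genes. Of 42 suprabasal and cornified genes, 17 reached 1 CPM in all 3 tumours and 9 had 0 counts in all of them: Krt1, Krt2, Flg, Flg2, Hrnr, Rptn, Klk5, Lce1m and Lce3c. A total of 0 in a library allows up to the 0.109 to 0.125 CPM of the floor. Among these are the keratins Krt1 and Krt2 of cornifying epidermis and filaggrin with its relatives. Means under 0.1 CPM were also seen for Klk7, Alox12b, Krt76 and Krt77, together with Cnfn. The envelope genes Ivl (involucrin) and Lor (loricrin) were present at 8.64, 7.77 and 10.5 and 2.46, 4.03 and 3.15 CPM. Krt6a, a keratin of wounded and hyperproliferative epithelium, carried most of the list's counts at 550.1, 865 and 590.3 CPM and was highest in vehicle 2. Of its 31-base windows, 51.3% also occur in other genes, so part of its reads could belong to relatives. Klf4, a factor of barrier formation, stood at 187, 255 and 209 CPM and the plakin genes Ppl and Evpl at 144, 173 and 178 and 75.1, 108 and 98.1.

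Simple epithelial and mesenchymal genes were measured beside the squamous ones. Of 25 genes of simple epithelium and cell adhesion, 22 passed 1 CPM in all tumours. After Cdh1 the leaders were Ehf, an epithelial ETS factor, at 326, 408 and 409 CPM, then Epcam and the simple keratin Krt8 at 233, 257 and 225. Cldn3 had 0 counts in each tumour and Cldn7 averaged under 0.1 CPM. Of 20 genes linked to mesenchymal transition, 19 passed, led by the membrane protease gene Mmp14 at 554, 475 and 523 CPM, the receptor gene Axl at 483, 488 and 414, Fn1 (fibronectin) at 408, 433 and 411 and Vim (vimentin) at 388, 372 and 391. These levels cannot be assigned to carcinoma cells or to stroma in bulk RNA. Cdh2, which encodes N-cadherin and was chosen after its values were seen, stood at 5.3, 4.44 and 4.61 CPM. This was far below Cdh1, in CPM not corrected for length.

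**Figure D1:**
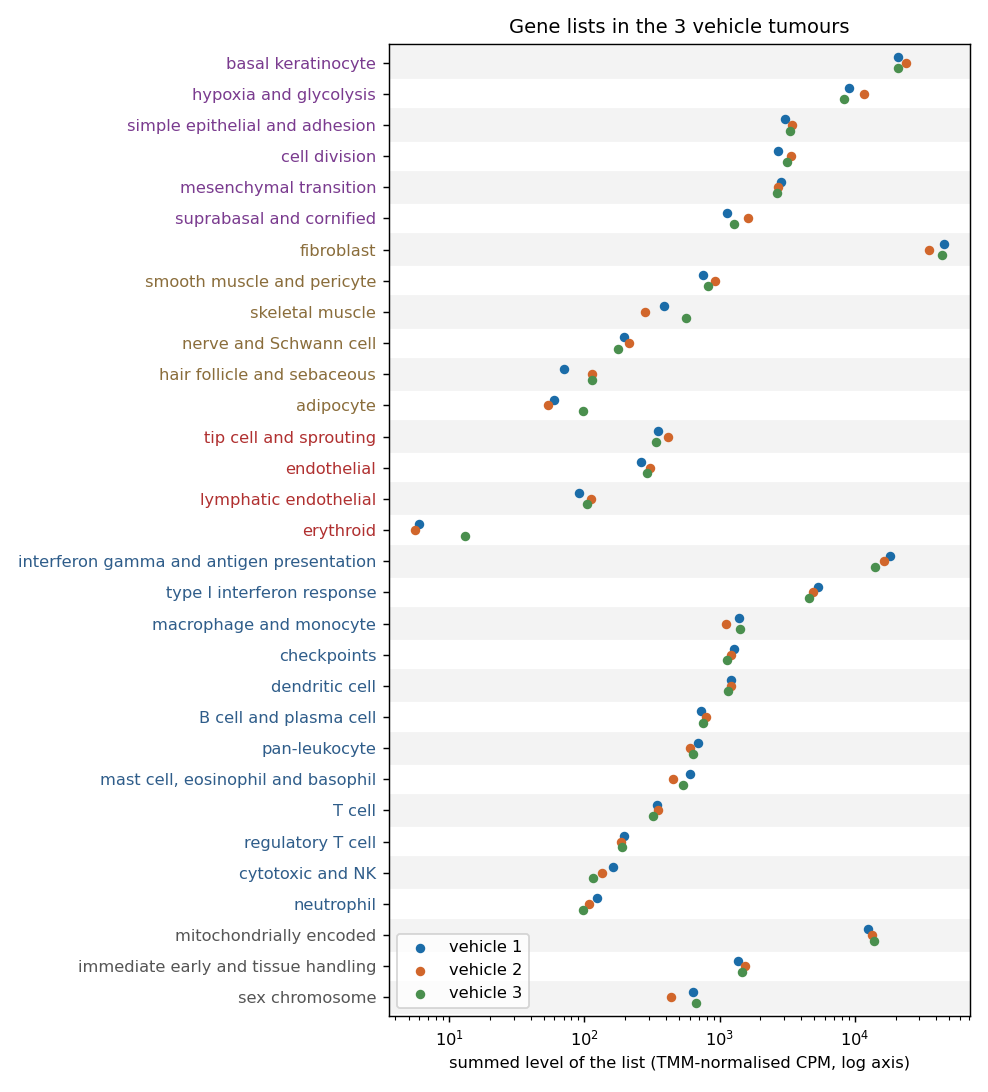
Summed CPM of 31 gene lists (log axis) in vehicle 1, 2 and 3, a point for each tumour, with list names coloured by programme. Sums depend on the genes in a list and their lengths, so points are to be read across tumours within a row; the erythroid, adipocyte and skeletal muscle lists show the widest gaps, with vehicle 3 highest in each.

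Stromal matrix genes formed the most counted list. Of 30 fibroblast genes 28 reached 1 CPM in all tumours, and the sums were 45561, 35123 and 43726 CPM, lowest in vehicle 2. Col1a1, Col1a2, Col3a1 and Sparc led, and 22 of the 29 members with a mean of at least 1 CPM were lowest in vehicle 2. Pdgfra and Dcn, markers that define fibroblasts here, stood at 77.7, 69.1 and 82.8 and 267, 157 and 241 CPM. Tcf21 had 0 counts in every tumour. Pi16, a marker of adventitial fibroblasts chosen after its values were seen, stood at 0.543, 1.69 and 4.96 CPM, with vehicle 3 apart from the others.

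Mural cells, muscle, fat and nerve were checked with their own lists. Of 20 smooth muscle and pericyte genes 16 passed 1 CPM throughout, led by Mcam at 177, 168 and 199.8 CPM, Acta2 (smooth muscle actin) at 129, 218 and 139.97, Smtn at 92.2, 102 and 95.2 and Ndufa4l2, a hypoxia-inducible gene of pericytes, at 77.8, 133 and 53.6. Acta2 and Ndufa4l2 were highest in vehicle 2, and Mcam in vehicle 3. Skeletal muscle RNA was present in each tumour: 17 of 18 genes averaged at least 1 CPM, 16 of those 17 were highest in vehicle 3, and the sums were 385, 281 and 566 CPM. Acta1, the actin of skeletal muscle, stood at 107, 72.4 and 141 CPM and the adult fast myosin gene Myh4, a defining marker, at 2.3, 1.69 and 14.3. Adipocyte genes followed the same tumour, with sums of 59.7, 54 and 97.7 CPM, and the adipocyte markers Adipoq and Plin1 stood at 0.0418, 0.11 and 1.31 and 0, 0 and 0.807 CPM. In vehicle 1 and 2 both markers were at or near the floor. The labels do not give the tissue around the tumour, and the part of muscle and fat RNA in other differences between tumours was not tested. The Schwann cell marker Sox10 was near the floor at 0.0418, 0.44 and 0.0769 CPM, and the hair follicle markers Krt25, Krt31 and Krt71 averaged under 0.1 CPM.

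Blood vessels were represented by 23 of 24 endothelial genes at 1 CPM or more in all tumours, with sums of 263, 305 and 289 CPM. Eng (endoglin), Plvap (the diaphragm protein of fenestrae), Pecam1 and Cdh5 (VE-cadherin) were the most counted, at 41.8, 48.7 and 40.4, 27.7, 33.8 and 33.2, 27.1, 31 and 34.1 and 22.8, 27.4 and 24 CPM respectively. Of the 23 genes with a mean of at least 1 CPM, 17 were lowest in vehicle 1, but the list sums differed by 1.16-fold at most. Kdr, the main VEGF receptor of vessels, stood at 13.6, 16.5 and 15.6 CPM. Genes of sprouting tips were also present, led by Nrp2 at 173, 177 and 161 and the vasodilator gene Adm at 33.8, 82.4 and 27.6 CPM. Nrp2 alone made up 46.5% of that list's summed CPM and stood well above Pecam1 and Kdr. In bulk RNA the levels of Nrp2 and Adm cannot be assigned to endothelial cells. Lymphatic markers were low: Prox1 stood at 0.71, 1.5 and 1.77 and Lyve1 at 6.1, 6.89 and 7.57 CPM. Ccl21a had 0 counts, and 80.6% of its windows occur in other genes. Red cell RNA was scarce, with Hbb-bs at 2.13, 2.02 and 5.34, Hba-a1 at 1.8, 1.17 and 4.88 and Alas2 at 0.0418, 0.11 and 0.192 CPM, and 0 counts for Hba-a2, whose windows are shared at 92.6%.

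Leukocytes were present in every tumour, and all 12 pan-leukocyte genes passed 1 CPM, 10 of them highest in vehicle 1. Ptprc, which encodes CD45 and was chosen after its values were seen, stood at 70.4, 60.5 and 65.8 CPM. Macrophage genes were abundant. Apoe stood at 239.7, 201 and 323 CPM, and the complement genes C1qa, C1qc and C1qb at 218, 175 and 186, 159, 119 and 126 and 150.3, 116 and 132, all lowest in vehicle 2. The macrophage markers Csf1r and Adgre1 (F4/80) stood at 95.7, 77.8 and 93.8 and 30.6, 26.7 and 26.8 CPM. Of the 26 macrophage and monocyte genes with a mean of at least 1 CPM, 17 were highest in vehicle 1 and 8 in vehicle 3. Marco, a scavenger receptor, averaged under 0.1 CPM.

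Mast cells were the granulocyte type with abundant transcripts. The tryptase genes Tpsab1 and Tpsb2 stood at 221, 162 and 184 and 108, 69.7 and 91.8 CPM. The chymase genes Mcpt4 and Mcpt1 stood at 75.7, 45.9 and 67.7 and 65.4, 78.7 and 67.1, and Cpa3, the mast cell carboxypeptidase, at 53.8, 33.7 and 48.5. Of 11 genes of this list at 1 CPM or more on average, 9 were highest in vehicle 1 and 9 lowest in vehicle 2, while Mcpt1 was highest in vehicle 2. Eosinophil and basophil genes were near absent: Epx and Ear6 had 0 counts, and Prg2, Il5ra, Ear1 and Mcpt8 averaged under 0.1 CPM. Neutrophil genes were low. Csf3r stood at 8.48, 6.38 and 8.19, S100a8 at 1.25, 0.477 and 1.19 and Ly6g at 0.0418, 0.11 and 0.0769 CPM. The granule genes Camp, Ngp and Elane averaged under 0.1 CPM, Camp with 0 counts. The most counted genes of the neutrophil list, Mmp9 at 71.7, 81.2 and 61, Hdc, Lcn2 and Csf3r, are also made by other cells.

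T cells were detected and B cells barely. Cd3e, Cd8a and Cd4 stood at 8.1, 6.75 and 5.92, 15.7, 15.5 and 13.3 and 26.3, 20.6 and 21.2 CPM, and Foxp3, the regulatory T cell factor, at 4.13, 3.15 and 2.81. Cd3e and Foxp3 were ordered from vehicle 1 down to vehicle 3. The most counted T cell genes, Thy1 and Bcl11b, are shared with fibroblasts and keratinocytes. Among cytotoxic and NK genes Il2rb led at 31.1, 27.5 and 20.7 CPM, before Gzmc at 24.1, 18.8 and 13.9, Ccl5 at 20.2, 15.2 and 18.9 and Ctsw at 14.7, 12.3 and 11.3. The NK markers Ncr1 and Klrb1c stood at 2.21, 1.87 and 1.92 and 0.543, 0.477 and 0.308 CPM, and Klra4 and Klra8 had 0 counts. Of the windows of Klrb1c, Klra4 and Klra8, 21.2%, 17.5% and 55% occur in other genes. How far reads of C3H/HeN mice match build GRCm38 at these genes was not tested, so their low values are not read as few NK cells. The B cell marker Ms4a1 stood at 0, 0.0367 and 0 CPM, under the floor, and the plasma cell markers Jchain and Mzb1 at 1.63, 0.403 and 1.15 and 0.0418, 0 and 0.0769. The bulk of that list's counts came from Sdc1 and Xbp1, at 496, 570.1 and 518 and 163, 168 and 170.5 CPM, which epithelial cells also express. Dendritic cell markers were low but present, with Flt3 at 4.88, 6.05 and 7.5, Xcr1 at 6.51, 5.68 and 4.38 and Zbtb46 at 3.38, 2.13 and 3.61 CPM.

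Of 25 checkpoint genes 24 reached 1 CPM in all tumours. Lgals9 (galectin 9) led at 272, 252 and 240.2 CPM, followed by Cd47, the signal that restrains phagocytosis, at 234, 238 and 223, by Sirpa, its receptor, at 145, 122 and 129, and by Nt5e (CD73) at 138, 146 and 131. Of the pathway that the study's antibody targets, Pdcd1 (PD1) stood at 6.85, 5.87 and 4.69 CPM and its ligand gene Cd274 (PD-L1) at 89.8, 70.8 and 45.4. Cd274 had the same order of tumours as the interferon gamma genes described next.

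In several gene lists most members had the same tumour on top. Over the 14054 genes with a mean of at least 1 CPM, each tumour was the highest for about the same share, 32.8%, 34.1% and 33.1%, and the median deviation from the gene's own mean lay between -0.0026 and 0.0021 on the log2(CPM + 0.1) scale. Against that, 29 of 32 genes of the interferon gamma response and antigen presentation were highest in vehicle 1 and 31 were lowest in vehicle 3. Their mean deviations were 0.29, 0.05 and -0.34. The list sums were 18111, 16523 and 14034 CPM. In hypoxia and glycolysis 21 of 24 genes were highest in vehicle 2, with mean deviations of -0.05, 0.31 and -0.25. In skeletal muscle the figures were -0.09, -0.54 and 0.63, with vehicle 3 highest. Shorter lists did likewise. Of 8 neutrophil genes with a mean of at least 1 CPM, 7 were highest in vehicle 1, with mean deviations of 0.46, -0.35 and -0.11. The exception was Mmp9, highest in vehicle 2, which made up 64.8% of the list's summed CPM. The sums were 124, 109 and 98 CPM, lowest in vehicle 3, and 5 of the 20 neutrophil genes reached 1 CPM in all tumours. Of 7 mitochondrially encoded genes, 6 were highest in vehicle 3, with mean deviations of -0.13, -0.03 and 0.15. These are counts over genes that vary together within 3 libraries, and no test across samples was possible for them.

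**Figure D2:**
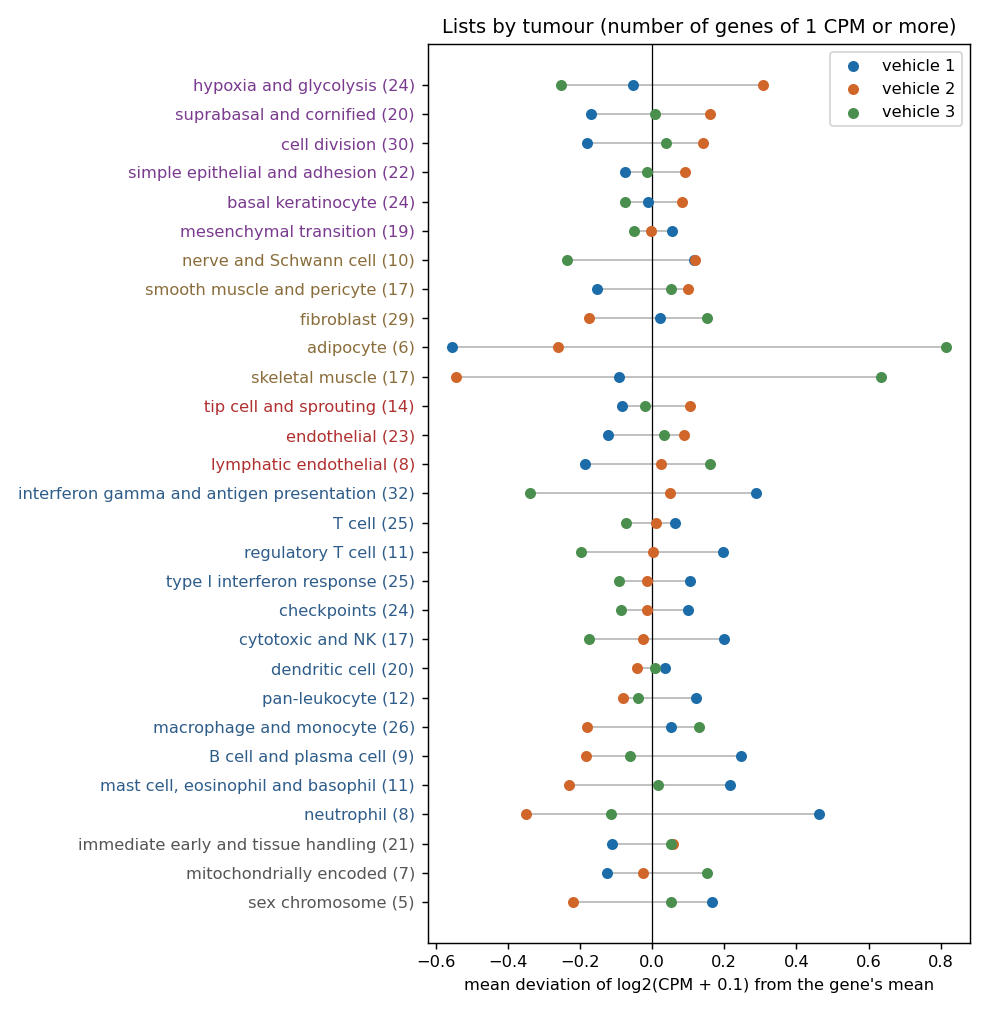
Mean deviation of log2(CPM + 0.1) from each gene's own mean over the 3 vehicle tumours, for lists with at least 5 genes averaging 1 CPM or more (number in brackets). Each point is a tumour and grey lines join the 3: vehicle 1 lies to the right in the interferon gamma list, vehicle 2 in hypoxia and glycolysis, and vehicle 3 in skeletal muscle and adipocyte genes.

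Interferon gamma, released by T and NK cells, acts through its receptor to switch on MHC genes, guanylate-binding proteins and the chemokines Cxcl9, Cxcl10 and Cxcl11. H2-K1 and B2m, the chains of MHC class I, varied little between tumours. Cd74 stood at 2556, 2159 and 1836 CPM and H2-Aa, a chain of MHC class II, at 1134, 928 and 816, both ordered from vehicle 1 down to vehicle 3. The gap was wider for the chemokine gene Cxcl9, at 117, 80.4 and 36.5 CPM. Others chosen after their values were seen were Cxcl10 at 135, 133 and 79.7, Gbp4 at 208, 153 and 94.3, Gbp5 at 177, 149.5 and 103 and Ciita, the master regulator of MHC class II, at 120.5, 98.8 and 61.5 CPM, and in each vehicle 3 was lowest. The type I interferon list moved less, with mean deviations of 0.10, -0.01 and -0.09 and 21 of 25 genes highest in vehicle 1. Its leaders Ifit1, Ifit3, Oasl2 and Irf7 stood at 469, 419 and 417, 465, 394 and 349, 427, 388 and 382 and 449, 372 and 312 CPM. By mean deviation the T cell and cytotoxic lists had the same order, with 0.06, 0.01 and -0.07 and 0.20, -0.02 and -0.18. The T cell list sums did not, at 344, 350 and 320 CPM. Of the 25 T cell genes, 13 were highest in vehicle 1, 10 in vehicle 2 and 2 in vehicle 3. Ifng itself stood at 0.585, 0.587 and 0.423 CPM. The part of T cell and cytotoxic genes in the interferon differences was not tested.

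Hypoxia-inducible factors bind a short core sequence near genes of glucose uptake, glycolysis and vessel growth. The most counted of these genes were Pkm, Gapdh, Aldoa and Pgk1, enzymes of glycolysis, at 1498, 1946 and 1504, 1499, 1726 and 1379.6, 1010.4, 1209 and 912 and 767, 1059 and 725 CPM, with vehicle 2 highest in each. Larger gaps were seen in genes chosen after their values were seen. Ndrg1 stood at 609.7, 1003 and 462 CPM, Slc2a1, the glucose transporter GLUT1, at 222, 351 and 169, and Vegfa at 88.7, 125 and 61.1. Car9, a carbonic anhydrase widely used to mark hypoxia, stood at 40.2, 79.6 and 40.7, close to level in vehicle 1 and 3. Cell division genes were also highest in vehicle 2 in 24 of 30 cases and lowest in vehicle 1 in 29, with Top2a, Mki67, Mcm6 and Mcm5 at 333, 379 and 401, 294, 406 and 333, 193, 215 and 217 and 148, 175 and 169 CPM. Of those 4, vehicle 3 was above vehicle 2 in Top2a and Mcm6. Immediate early genes, which can rise while tissue is handled, were lowest in vehicle 1 in 16 of 21 cases, with mean deviations of -0.11, 0.06 and 0.05.

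Promoter windows of both groups were read from RefSeq's starts on build GRCm38.p6, because members of each moved together between tumours. The hypoxia core searched was ACGTG, on either strand, in the 250 bases before each start. It was found in 15 of the 22 hypoxia and glycolysis genes matched by symbol out of 24 (68.2%), against 24.4% of the 10959 matched genes tested here and 18.5% of all 27025 genes in the table. In the fibroblast and basal keratinocyte lists it was found in 4 of 19 (21.1%) and 0 of 11 matched genes. Genes entered the hypoxia list for their part in hypoxia and glycolysis, so its share describes the list and not these tumours. For the interferon gamma list, 22 of 32 genes were matched. The gamma-activated site TTCNNNGAA was present in 4 of them (18.2%; 7.2% of genes tested and 8.1% of all), and the core of the interferon-stimulated response element (GAAA, any 2 bases, GAAA) in 8 (36.4%; 3.5% of genes tested and 3.5% of all), on either strand. The type I interferon list, which moved less between tumours, held the element core in 8 of 17 matched genes (47.1%) and the gamma-activated site in 3 (17.6%), so these matches do not set apart the list that moved more. These are matches of letters and show neither binding nor use.

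Shown here are the windows of the 2 genes in each list with the smallest p for spread between the tumours among those whose window, at the gene's own annotated start, held the list's motif. They run 5′ to 3′ in the sense of the gene and end at its last base before the start, with motif matches in capitals, and come from the reference genome, not from C3H/HeN or Sq-1979.
Car9 (chr4:43506776-43507025, plus strand, match beginning 18 bases before the start): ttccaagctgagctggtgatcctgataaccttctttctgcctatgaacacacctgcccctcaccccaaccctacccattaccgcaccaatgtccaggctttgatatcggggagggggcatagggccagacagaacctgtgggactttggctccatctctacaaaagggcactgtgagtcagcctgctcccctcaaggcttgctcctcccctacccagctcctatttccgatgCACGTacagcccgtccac
Slc2a1 (chr4:119108495-119108744, plus strand, match beginning 36 bases before the start): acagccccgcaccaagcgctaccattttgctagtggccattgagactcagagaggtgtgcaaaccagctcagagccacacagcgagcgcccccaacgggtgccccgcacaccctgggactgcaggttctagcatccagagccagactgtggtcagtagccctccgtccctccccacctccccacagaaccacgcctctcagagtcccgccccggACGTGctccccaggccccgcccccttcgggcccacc
Cxcl10 (chr5:92348890-92349139, minus strand, match beginning 213 bases before the start): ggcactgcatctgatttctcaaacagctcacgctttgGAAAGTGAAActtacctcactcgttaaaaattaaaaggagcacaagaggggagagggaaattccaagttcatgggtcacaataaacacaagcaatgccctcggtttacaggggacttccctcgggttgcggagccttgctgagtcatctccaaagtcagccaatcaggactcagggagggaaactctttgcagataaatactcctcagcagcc
Gbp5 (chr3:142496684-142496933, plus strand, matches beginning 245, 165 and 52 bases before the start): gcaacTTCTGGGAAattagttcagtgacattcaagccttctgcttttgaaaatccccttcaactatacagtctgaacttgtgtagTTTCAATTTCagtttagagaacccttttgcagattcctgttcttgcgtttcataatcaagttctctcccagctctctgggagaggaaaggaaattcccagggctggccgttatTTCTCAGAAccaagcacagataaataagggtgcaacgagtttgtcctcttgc

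Gene families were compared per kilobase to see which paralogue carried each. Of 70 families, 64 had the same leading member in all 3 tumours, and in 41 the leader held over 50% of the family's summed level in every tumour. Of 487 members, 31 had 0 counts in all 3. An exact paired test over 3 tumours cannot go below 0.25, so differences between paralogues are given as levels and ratios with no test. When the longest transcript replaced the merged exons the leader changed in 5 families: the S100 proteins, ERBB receptors, EGF family ligands, CDK inhibitors and interferon regulatory factors. Without division by length it changed in 15.

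Keratin choice was that of basal cells. Krt14 held 68.3%, 70.4% and 70.5% of the type I keratin level, with 2446, 2885 and 2618 CPM per kilobase, and Krt17, a keratin of activated epithelium, averaged 20.9%. Krt12, Krt24, Krt26, Krt27, Krt28, Krt33b, Krt34 and Krt40 had 0 counts. Among type II keratins Krt5 held 88.8%, 86.9% and 88.4%, and Krt6a came next with a mean of 7.42%, highest in vehicle 2. Krt1, Krt2, Krt72, Krt73 and Krt82 had 0 counts. The keratin pair thus made up most of each class in each tumour.

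Junction families were led as follows. Dsg3, the desmoglein of deep layers, held 69.5%, 78.3% and 72% and Dsg2 averaged 26.2%, while Dsg4 had 0 counts. Dsc3 averaged 64.7% ± 1.87 (SD, n = 3) and Dsc2 35.3%. Of the plakophilins Pkp1 averaged 55.7% and Pkp3 35.4%. Cdh1 averaged 66.5% of the classical cadherins, with Cdh3 (P-cadherin) next at 19.4%. Cldn8 and Cldn4 led the claudins at 37.7% and 29.2%.

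For attachment to the basement membrane, Itga6 and Itga3 led the integrin alpha subunits at 25.4% and 15.8%, and Itgb1 and Itgb4 the beta subunits at 42.2% and 31.1%. Itga6 and Itgb4 pair in hemidesmosomes. The laminin beta chains were led by Lamb3 at 54.5%, part of the epithelial laminin of hemidesmosomes, whose alpha chain gene Lama3 came second at 35.4% to Lama5 at 55.6%. Lamb2 was second among beta chains at 29.7%. The fibrillar collagens were led by Col1a1 at 51.2% and Col3a1 at 21.3%, and the type IV collagens by Col4a1 at 56.7% and Col4a2 at 41.1%.

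Matrix turnover was carried by several proteases. Mmp13, a collagenase, led at 229, 180.2 and 219.8 CPM per kilobase, 29.9% of the family, before Mmp2, a gelatinase, at 139.7, 114 and 147. Mmp1a had 0 counts. Among the inhibitors Timp2 held 83.2%, 80.6% and 80.8% and Timp1 averaged 15.2%. Thbs2 and Thbs1 led the thrombospondins at 57.1% and 38.1%.

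Growth factor families differed in how far 1 member led. Tgfb3 held 69.4%, 72.4% and 74.4% of the TGF-beta ligand level, at 44.9, 53.2 and 55.8 CPM per kilobase, with Tgfb1 next at 13.2, 12.6 and 11.3. The lowest ratio of Tgfb3 to Tgfb1 in a tumour was 3.39. Erbb2 and Egfr could not be ordered: they stood at 29, 30.6 and 29.9 and 32.4, 27.8 and 29.3 CPM per kilobase, and the leader differed between tumours, while Erbb4 had 0 counts. Their ligand genes Tgfa and Nrg1 were likewise close, at 6.18, 6.92 and 5.6 and 6.24, 6.84 and 5.11. Notch1 averaged 65.4% of the Notch receptors and Notch2 18%, and Jag2 and Dll1 led the ligands at 40.1% and 33.9%. Of the receptors that regorafenib is known to inhibit, Pdgfrb held 78.4% against 21.6% for Pdgfra, and Kdr led Flt1 by 1.43 to 1.46-fold. Fgfr1 and Fgfr2 averaged 45.9% and 35.8% of the FGF receptors, and Tie1 and Tek 76.2% and 23.8% of the TIE receptors.

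In cell cycle and survival families, Ccnd1 averaged 54.6% of the D-type cyclins with Ccnd2 at 36.1%, Myc 64.6% of its family with Mycl at 35.3%, and Mcl1 61.4% of the BCL2 survival proteins with Bcl2l1 at 21.2%. Bcl2l10 had 0 counts. Trp63 and Trp53 were a near tie in vehicle 2 and 3, at 58.9, 50.1 and 51.6 and 47.9, 49.8 and 50.8 CPM per kilobase. The CDK inhibitors were led by Cdkn1b and Cdkn1a, at 28.8% and 24.3%.

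Of the metabolic families, lactate dehydrogenases, aldolases and glucose transporters were carried almost wholly or mostly by 1 gene. Ldha held 97.9%, 98.7% and 98.1% of the lactate dehydrogenases, 63.0 to 104 times the level of Ldhb, and Ldhc had 0 counts. Aldoa held 96.6%, 96.9% and 96.2% of the aldolases, and Slc2a1 85.1%, 90.8% and 82.1% of the facilitative glucose transporters, its share highest in vehicle 2, with Aldoc and Slc2a8 next at 3.41% and 4.24%. Hexokinases were divided between Hk1 at 60.4% and Hk2 at 37.1%. Hif1a averaged 80.5% ± 1.37 of the HIF alpha subunits (SD, n = 3) and Epas1 19.2%.

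**Figure D3:**
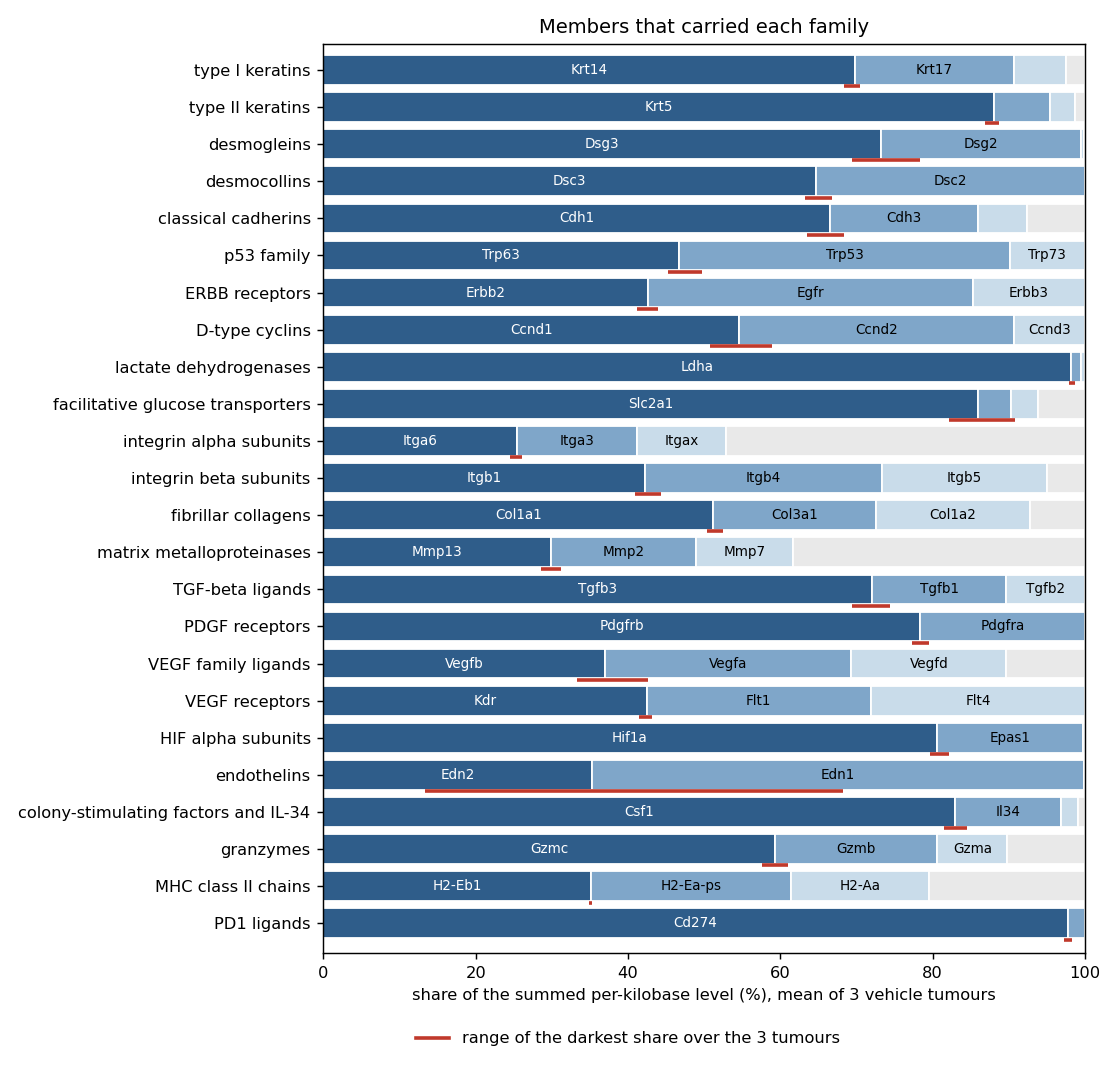
Share of each family's summed CPM per kilobase held by its 3 leading members (dark to light blue) and by all others (grey), as the mean of 3 vehicle tumours, with the leader's range over the tumours as a red line. Krt5, Krt14, Ldha and Cd274 held most of their families in each tumour, whereas the red line of Edn2 runs from 13.3% to 68.3%.

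The VEGF ligands and the endothelins changed their leader between tumours. Vegfb stood at 23.1, 24.6 and 23.3 CPM per kilobase and Vegfa at 20.7, 29.3 and 14.3, so Vegfa led in vehicle 2 alone. Of the 70 families the endothelins had the largest SD of the leader's share: Edn2 stood at 1.29, 11.7 and 0.447 and Edn1 at 4.02, 5.45 and 2.89 CPM per kilobase, which gave Edn2 24.2%, 68.3% and 13.3% of the family. Edn2 led in vehicle 2 and Edn1 in the other tumours. Neuropilins, angiopoietins and SoxF factors kept their order in all 3 tumours. Nrp2 averaged 84% of the neuropilins with Nrp1 at 16%, Angpt1 67.2% of the angiopoietins with Angpt2 at 29.3%, and Sox18 82.7% of the SoxF factors with Sox7 at 12.3%.

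Immune families had mostly the same leaders in each tumour. Cd274 held 98.3%, 97.7% and 97.3% of the PD1 ligands and Pdcd1lg2 (PD-L2) averaged 2.25%. Of MHC class II chains H2-Eb1 led at 585, 476 and 409 CPM per kilobase, and H2-Ea-ps, named a pseudogene in the annotation, was second at 437, 356 and 303. Over the tumours both were ordered as the interferon gamma list. The annotation is that of the reference genome and not of C3H/HeN, so the name does not show that H2-Ea-ps is a pseudogene in these mice. The effect of strain differences on the shares of this family was not tested. Csf1 averaged 83% of the colony-stimulating factors with Il34 at 13.9%, and Csf1r 47.5% of their receptors with Csf2ra at 18.4%. Gzmc and Gzmb averaged 59.3% and 21.3% of the granzymes, with Gzmg and Gzmn at 0 counts. Ccl8 led the CC chemokines at 38.1%, 42% and 53.8% before Ccl11, and Ccl19 had 0 counts. Cxcl16 and Cxcl10 were level in vehicle 1 and 2, at 59.3, 60.7 and 53.2 and 59.8, 59.1 and 35.4 CPM per kilobase, and apart in vehicle 3. Ighm and Igha averaged 55.7% and 28.8% of the heavy constant regions, at 6.88, 7.13 and 8.36 and 5.07, 3.71 and 2.85 CPM per kilobase, and Irf7 and Irf1 33.8% and 24% of the interferon regulatory factors.

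Some family values rest on sequence that is not unique. Sprr2a3 and Sprr1a, precursors of the cornified envelope, changed places between tumours at 21.8, 41.8 and 17.7 and 17.2, 22.8 and 21.1 CPM per kilobase, and 73.6% of the windows of Sprr2a3 occur in other genes. Eno1 led the enolases at 54.1% and Eno1b was listed at 37.9%, with 89% of its windows shared. Trbc2 and Trbc1, nearly identical T cell receptor constant genes, are also uncertain. S100a11, with 48.9% of windows shared, and S100a6 averaged 44.5% and 32.8% of the S100 proteins.

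The X-linked and Y-linked copies of 4 housekeeping genes were compared because the hosts were male. The X copy held 97% for Ddx3x and Ddx3y, 94% for Eif2s3x and Eif2s3y, 98.4% for Kdm5c and Kdm5d, and 96.2% for Kdm6a and Uty. Ddx3y stood at 14.2, 10.2 and 13.3 CPM. Xist, the RNA of the inactive X chromosome, stood at 599, 410.03 and 633 CPM and was lowest in vehicle 2, as were Ddx3y, Eif2s3y and Kdm5d. Uty, the remaining Y copy, was lowest in vehicle 3. The labels give the sex of the hosts and not that of the line, and what these values show about the origin of the RNA was not tested.

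Spread between the 3 tumours was small. The common biological coefficient of variation (BCV), which is the spread left after counting error, was 9.90%. Among 14036 tested genes with a mean of at least 1 CPM, the median coefficient of variation was 7.05%, and it was 14.3% from 1 to 10 CPM and 5.99% from 10 to 100. Between the highest and the lowest tumour 64.7% of these genes lay within 1.2-fold, and 365 (2.60%) differed by 2-fold or more. In those 365 the tumour farthest from the middle one was vehicle 1 in 93 genes, vehicle 2 in 151 and vehicle 3 in 121. Across genes the log2 levels of any 2 tumours correlated with a Pearson's r of 0.993, as a description, since genes are not independent replicates.

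The other groups of the study were more spread out. The BCV was 22.4% in the anti-PD1 group, 27.1% in the regorafenib group and 21.8% in the combination group. Taking any 2 libraries of a group, it lay between 9.06% and 10.7% for vehicle and between 17.9% and 29.7% in the treated groups, so no treated pair was as close as the vehicle pairs. Of 16974 genes the vehicle group had the smallest SD of log2 CPM in 51.7%, where anti-PD1 had it in 20.9%, the combination in 16.7% and regorafenib in 10.7%. A test of this difference was not run, and treatment cannot be told apart from anything else that the vehicle libraries share.

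**Figure D4:**
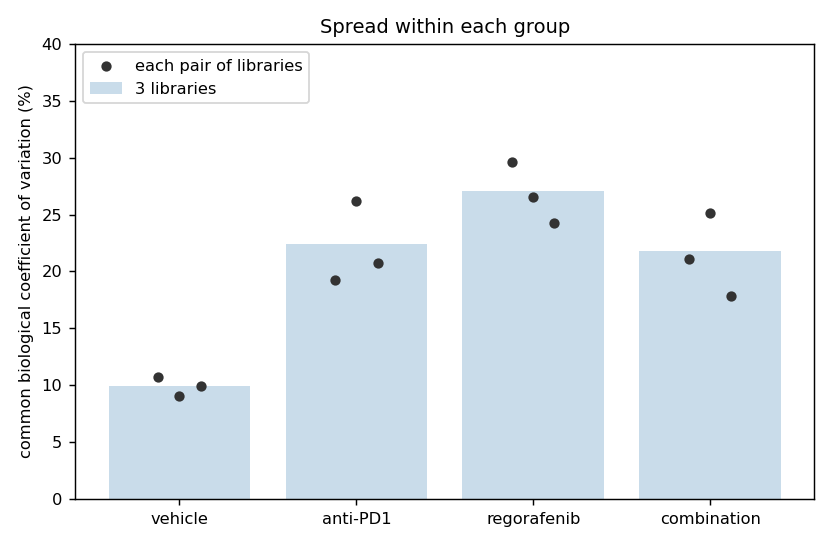
Common biological coefficient of variation (%) of each group of 3 libraries (bars) and of each pair of libraries within it (points). The vehicle bar is at 9.90% and its pairs lie below every pair of the treated groups.

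Single genes were tested for more spread between the vehicle tumours than others of like abundance, with edgeR's quasi-dispersion against its trend. Of 15261 genes 14 passed at a Benjamini-Hochberg adjusted p under 0.05, or 0.0917%, and 5 of these were among the 771 tested genes of the lists and families: Edn2, Thbs4, Cxcl9, Adm and Krt79. An unadjusted p under 0.05 was found for 926. The count depended on the libraries used, since 0 genes passed without vehicle 3, against 24 without vehicle 1 and 30 without vehicle 2. It was also 0 with all 3 libraries when robust estimation was left out.

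Edn2 (chr4:120161206-120167360), which encodes a vasoconstrictor peptide, had the highest coefficient of variation of the 14, with 1.88, 17.2 and 0.654 CPM and an edgeR adjusted p of 0.0279. Adm, which encodes the vasodilator adrenomedullin, was high in the same tumour at 33.8, 82.4 and 27.6 CPM (edgeR adjusted p of 0.0444). Vehicle 2 was thus the high tumour for both peptides. Cxcl9 ran from vehicle 1 down to vehicle 3, with an edgeR adjusted p of 0.0444. Thbs4, a matrix protein of tendon and muscle, stood at 42, 18.3 and 67.6 CPM (edgeR adjusted p of 0.0444), and Igfbp5, a binding protein of insulin-like growth factors, at 78.6, 65 and 189 (edgeR adjusted p of 0.0436). Vehicle 3 was highest for both. Krt79, a keratin of the hair follicle canal, stood at 19.5, 61 and 61.8 CPM (edgeR adjusted p of 0.0444), with vehicle 1 apart from the others.

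A further set was low in vehicle 3. Lars2, the mitochondrial leucyl-tRNA synthetase gene (chr9:123366927-123462666), stood at 1545, 1834 and 235 CPM (edgeR adjusted p of 0.0179), and Mir6236 (chr9:110281287-110281409) at 195, 258 and 32.4 (edgeR adjusted p of 0.0179). Another 4 genes with predicted names had the same order of tumours, vehicle 2 above vehicle 1 and vehicle 3 far below, with 7.37 to 9.46-fold between highest and lowest. The rest of the 14 are counted only. Mitochondrial genes as a whole differed little, with 1.29%, 1.36% and 1.43% of the counts, and whether these genes share reads with other RNAs was not tested.

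**Figure D5:**
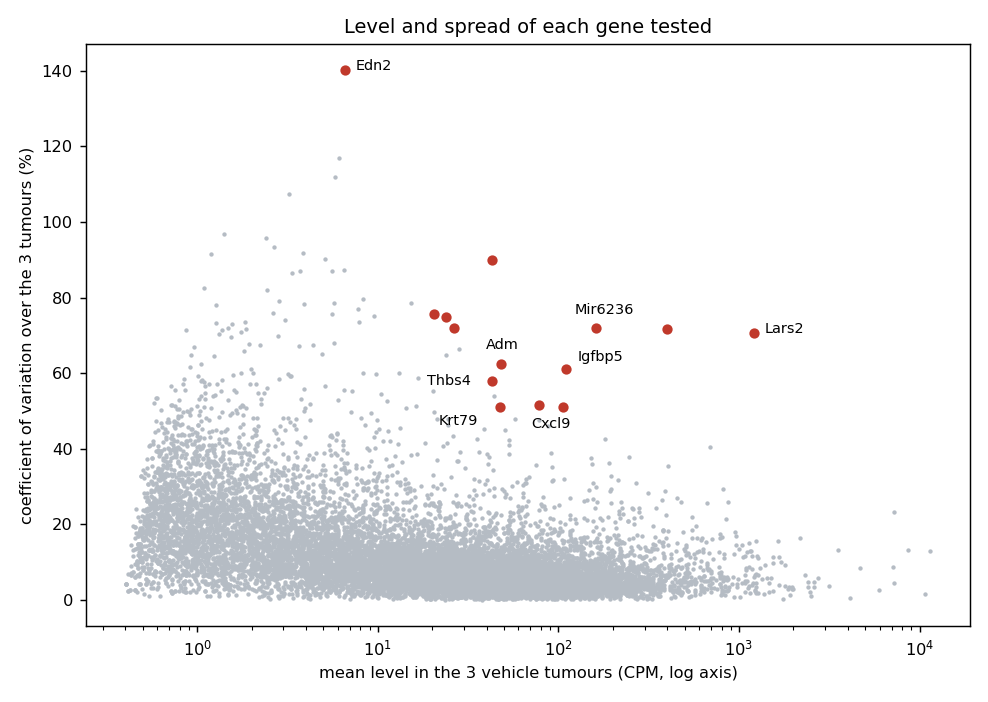
Mean CPM (log axis) against coefficient of variation over the 3 vehicle tumours (%) for each tested gene. Red points are the 14 genes past an adjusted p under 0.05, of which those described in the text are named: Edn2 is the highest at 140% and Lars2 the most counted.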

How the data were processed

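Polyadenylated RNA of 12 tumours was sequenced from stranded libraries, and the authors deposited raw read counts per Ensembl gene, 1 column for each tumour, of which the 3 vehicle columns were used and the other 9 only for the spread of their groups. Per the submitters' processing notes, cutadapt 2.4, STAR 2.7.2a and build GRCm38 were used. How reads were counted, on which strand and with which gene models is not given in the sources used here. Of 55487 identifiers 55227 matched GENCODE M21 with the version ignored, and these took symbols, coordinates and exon lengths from it. Genes that share sequence or overlap may have lost reads or gained them, depending on the counting. The share of 31-base windows that also occur in other genes was computed for list and family members.

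Library factors came from TMM in edgeR 4.0.16 (R 4.3.3) on the vehicle libraries alone, after filterByExpr with a minimum count of 10 and a total of 15, which kept 15261 genes. An intercept-only quasi-likelihood fit with robust estimation gave each gene's quasi-dispersion over the trend, tested by F with 2 residual and 5.70 prior degrees of freedom, the highest value the robust fit gave to any gene, and adjusted by Benjamini-Hochberg. On simulated data of the same 15261 genes, with 50 genes raised in 1 library at each fold, this recovered 8% at 2-fold, 74% at 4-fold, 92% at 8-fold and 100% at 16-fold, with 2 false calls. The simulated spread (BCV 19.0%) was wider than the real one.

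The tumours, 31 gene lists and 70 families were chosen with earlier results of these data known. Named are the 15 genes of highest mean CPM and of highest level per kilobase, the 4 most counted and the defining members of each list, list members averaging under 0.1 CPM, the 2 leaders of each family described with members at 0 counts, and of the variable genes the 12 of smallest p and any in a list or family. Genes outside this rule are said to be chosen after their values were seen, which also holds for Ifng, Pdcd1 and Hspa1a. Predicted and clone names are counted only, and some genes the rule names are not reported here. Alternatives were RLE factors, library totals, other filters and floors, no robust estimation, DESeq2 1.42.0, other lengths and each library left out. Promoter windows came from RefSeq.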

Additional observations from a re-analysis of the deposited data

How the results depend on the processing

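No paired analysis was possible because every test used the vehicle group alone, and the spread of the other groups was set beside it as values with no test. The number of genes more variable than others of like abundance depended on the settings: 14 as reported, 8 with RLE factors, 7 among genes of at least 10 CPM, 568 with no filter on low counts, 0 without robust estimation, and 152 dispersion outliers by DESeq2. Leaving out a vehicle library gave 0 to 30. The 8 and the 7 were all among the 14, and the 568 and the 152 contained all 14. Without vehicle 1 and without vehicle 2, 12 and 10 of the 14 remained. The cause of these changes was not tested, but where no filter was used 27333 genes entered. Edn2 kept its call with RLE factors, and Adm, Cxcl9, Thbs4, Krt79 and Igfbp5 did not.

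The BCV lay between 8.78% and 10.7% over its alternatives, and genes at 1 CPM or more numbered 13638 to 13854 over all alternatives but a floor of 0.1 CPM, which gave 17745. Families with the same leader in all tumours numbered 64 to 67. Every list sum stayed within 1 SD of its reported value under RLE factors and library totals. The leader's share moved by over 1 SD in 54 families without length and in 42 with the longest transcript. Depth limits genes under the floor of 3 counts.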

Other observations

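Mitochondrially encoded genes were uneven in the deposited counts. mt-Co1, mt-Cytb, mt-Nd1, mt-Nd5, mt-Nd4 and mt-Nd2 stood between 621 and 7446 CPM in every vehicle tumour, whereas mt-Co2, mt-Co3, mt-Atp6 and mt-Nd3 averaged under 0.3 CPM and mt-Nd4l and mt-Atp8 had 0 counts. The heat shock gene Hspa1b stood at 166, 203 and 171 CPM and its near copy Hspa1a at 0.835, 0.917 and 1.11. Of the windows of mt-Co2 and mt-Co3, 100% and 99.9% occur elsewhere in the annotation, against 7.5% for mt-Atp8, and low values of such genes are not read here as low expression.

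Aldh3a1, an aldehyde dehydrogenase of stratified epithelia chosen after its values were seen, was among the 40 most counted genes, at 1661, 1737 and 1982 CPM in the 3 vehicle tumours.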
